A study of Mus musculus with 3 samples.

Results

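β-catenin, the kinases and scaffolds that lead to its destruction, and the TCF/LEF factors that it binds on DNA were followed through the RNA-seq of ALSCs. The members were chosen by name and comprise *Ctnnb1*, which encodes β-catenin, *Apc*, *Axin1*, *Axin2*, *Gsk3a*, and *Gsk3b* of the destruction complex, and *Tcf7*, *Tcf7l1*, *Tcf7l2*, and *Lef1*. All 10 were found once each among the 55421 named genes of the table. ALSCs are stem cell lines derived from epiblasts of mouse gastrulae at E6.5, from matings of ICR females with males that carry the *Oct4*ΔPE-GFP reporter (GOF/GFP), and kept in N2B27 medium with Activin A and LIF on fibronectin. The 3 libraries (replicates 1, 2, and 3) are of this 1 condition, which contains neither CHIR99021 nor an added WNT ligand, so no difference between conditions was tested. The study calls its RNA-seq libraries biological replicates, but whether these came from separate lines, embryos, or cultures is not given. A p-value below therefore measures only the spread between these libraries, which may be technical. In such bulk libraries, fewer cells of a type and less RNA per cell cannot be told apart. The labels name the cells as embryonic stem cells, whereas the study describes them as primed.

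Canonical WNT signaling acts on the stability of β-catenin. Without a WNT signal, the scaffolds AXIN and APC hold β-catenin near the kinases CK1 and GSK3, which phosphorylate it and mark it for breakdown. When this complex is blocked, for instance by the GSK3 inhibitor CHIR99021, β-catenin accumulates, enters the nucleus, and binds TCF/LEF factors on the promoters and enhancers of target genes. In pluripotent mouse cells, TCF7L1 is known mainly as a repressor, whereas TCF7 and LEF1 are known mainly as activators. mRNA levels do not report the phosphorylation, stability, or location of β-catenin, on which the pathway turns.

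The total count on named genes lay between 18037342 and 18724038 in the 3 libraries. Levels are in FPKM, the fragments counted per kilobase of gene after scaling to the total count, computed from the authors' counts with the gene length in their table. The pluripotency genes *Pou5f1* (648 ± 25.3 FPKM, SD, n = 3), *Sox2* (119 ± 5.21 FPKM), and *Nanog* (171 ± 18.0 FPKM) were abundant. A level of 1 FPKM was reached in every library by all 4 primed markers (*Fgf5*, *Otx2*, *Dnmt3b*, and *Pou3f1*). None of the 5 listed naive markers (*Zfp42*, *Esrrb*, *Klf4*, *Tfcp2l1*, and *Tbx3*) did so, and *Zfp42* and *Tbx3* had 3 counts or fewer in each. This list leaves out *Klf2* and *Nr5a2*, which the study also names as naive markers. *Klf2* was at 3.38, 3.47, and 3.03 FPKM in replicates 1, 2, and 3, and *Nr5a2* stayed under 1 FPKM. The endoderm markers summed to between 1.77 and 2.92 FPKM, mostly *Foxa2* at 1.96 ± 0.588 FPKM, and the trophoblast markers summed to between 0.691 and 0.992 FPKM, with *Cdx2* and *Elf5* at 1 count or fewer. Of 8 fibroblast genes, 3 reached 1 FPKM in every library, *Thy1* (6.88 ± 0.400 FPKM), *Col1a1* (5.04 ± 1.11 FPKM), and *Fbln2* (1.22 ± 0.0634 FPKM), and 4 had 3 counts or fewer, *Dcn* and *Lum* with none. Their sum lay between 12.6 and 14.2 FPKM, and its part in the levels below was not tested. Replicate 1 stood apart from the others. In it, long genes had fewer counts and short genes more, with a median log2 ratio to the other libraries of -0.53 in the longest of 20 groups of genes and 0.39 in the shortest. Results of the test between libraries are therefore also given without replicate 1.

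*Ctnnb1* was by far the most abundant of the 10 genes, *Tcf7l1* and *Tcf7* made up nearly the whole TCF/LEF mRNA, and *Gsk3a* and *Axin1* exceeded their paralogs *Gsk3b* and *Axin2*. At 1 FPKM or more in every library were 9 of the 10 genes, and *Tcf7l2* was the exception. Levels spanned from 0.702 ± 0.0408 FPKM for *Tcf7l2* to 178 ± 25.4 FPKM for *Ctnnb1* (SD, n = 3), and *Ctnnb1* carried 59.5% of the summed FPKM of the 10 genes.

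**Figure D1:**
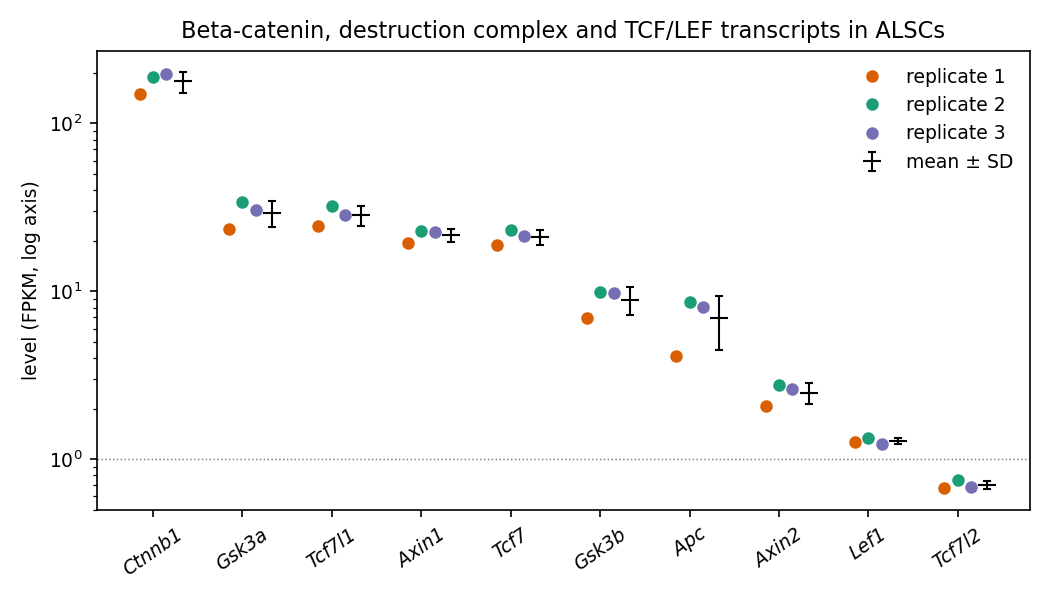
Level of the 10 genes in FPKM (log axis) in each of the 3 ALSC libraries (colored points), with the mean and SD beside them (black); the dotted line marks 1 FPKM. *Ctnnb1* stood above all other genes in every library, *Tcf7l2* lay under 1 FPKM, and replicate 1 was the lowest library for *Apc* at 4.14 FPKM against 8.67 and 8.03.

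*Ctnnb1* (ENSMUSG00000006932; GRCm38 chromosome 9, 120929216 to 120960507, plus strand) was at 149, 188, and 197 FPKM in replicates 1, 2, and 3, from 13981, 18270, and 18403 counts. Among the 11125 genes that reached 1 FPKM in each library, its mean exceeded 97.1%. Its paralog *Jup*, which encodes plakoglobin (γ-catenin), a protein of adherens junctions and desmosomes, was at 14.3, 16.5, and 15.6 FPKM. The ranges did not overlap, and *Ctnnb1* was 11.5 ± 1.06 times as high as *Jup* (ratio of FPKM, SD, n = 3), so it made up 91.9% ± 0.684 of their sum. When the longest coding *Ctnnb1* transcript was cut into all its stretches of 50 bases, 81.4% were found in this gene alone. The others were shared with *Ulk4*, which overlaps it on the opposite strand and held 45, 82, and 64 counts, few beside those of *Ctnnb1*. The strand setting of the counting is not given, so whether *Ctnnb1* lost reads in the shared stretches is not known.

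β-catenin also serves in adherens junctions, where it links cadherins to α-catenin. In a list of 9 junction genes, 6 reached 1 FPKM in all libraries. The highest were *Ctnna1* (α-catenin) at 52.6 ± 3.92 FPKM, *Cdh1* (E-cadherin) at 25.2 ± 3.51 FPKM, and *Jup* at 15.5 ± 1.14 FPKM (SD, n = 3 for each). N-cadherin (*Cdh2*) was at 3.72 ± 0.470 FPKM. Of the other α-catenin genes, *Ctnna3* had no count in any library, which allows up to 0.0230 FPKM, and *Ctnna2* had at most 2 counts. Nearly all α-catenin counts were thus those of *Ctnna1*, whose level was below that of *Ctnnb1* in every library.

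In the destruction complex, *Axin1* and *Axin2* encode the scaffold proteins that bind the other members. *Axin1* (ENSMUSG00000024182; chromosome 17, 26138688 to 26195811, plus strand) was at 19.3, 22.9, and 22.6 FPKM in replicates 1, 2, and 3. *Axin2* (ENSMUSG00000000142; chromosome 11, 108920349 to 108950783, plus strand), which is itself a target gene of β-catenin and gives negative feedback, was at 2.08, 2.75, and 2.63 FPKM. *Axin1* was higher in each library without overlap, and its share of the sum was 90.3%, 89.3%, and 89.6%. Although *Axin2* rested on only 207, 283, and 261 counts, its share of 10.3% ± 0.498 (SD, n = 3) moved little between libraries.

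*Gsk3a* and *Gsk3b* encode the closely related kinases that CHIR99021 inhibits. *Gsk3a* (ENSMUSG00000057177; chromosome 7, 25228258 to 25237851, minus strand) was at 23.6, 34.1, and 30.4 FPKM. *Gsk3b* (ENSMUSG00000022812; chromosome 16, 38089001 to 38246084, plus strand) was at 6.94, 9.95, and 9.74 FPKM. Every value of *Gsk3a* lay above every value of *Gsk3b*, with a mean ratio of 3.32 ± 0.174 (SD, n = 3). This order rests on the length correction. The gene length in the table is 2900 bases for *Gsk3a* and 9831 for *Gsk3b*, and the raw counts were nearly equal, at 1240, 1854, and 1588 for *Gsk3a* and 1234, 1832, and 1727 for *Gsk3b*. With the length of the longest coding transcript, 2260 and 8303 bases, the ratio was 3.60. Of such 50-base stretches in the *Gsk3a* transcript, 80.6% were unique to it, and the others were shared with *9130221H12Rik* and *Gm6275*. The antisense gene *9130221H12Rik* held 19, 29, and 23 counts. How reads in shared stretches were counted is not given, so the level of *Gsk3a* and its ratio to *Gsk3b* are uncertain to that extent.

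*Apc* (ENSMUSG00000005871; chromosome 18, 34220924 to 34322552, plus strand), the large scaffold that presents β-catenin to the complex, varied most between the libraries. It was at 4.14 FPKM in replicate 1 against 8.67 and 8.03 FPKM in replicates 2 and 3, so the value in replicate 1 was 49.5% of the mean of the others. With 16116 bases, *Apc* is longer than 97.7% of the 10577 genes whose mean count reached 100. Its part in the general shortfall of long genes in replicate 1 is given below. Without replicate 1 its mean was 8.35 FPKM, close to that of *Gsk3b* (9.85 FPKM).

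The other enzymes and scaffolds around the complex were taken from a list of 14 genes, of which 12 reached 1 FPKM in all libraries. The highest were *Tnks2*, a tankyrase that marks AXIN for breakdown, at 52.6 ± 6.82 FPKM, and the CK1 kinases *Csnk1d* at 44.0 ± 2.78 FPKM and *Csnk1a1* at 39.5 ± 1.09 FPKM (SD, n = 3 for each). The related tankyrase *Tnks* was at 5.12, 9.20, and 8.71 FPKM in replicates 1, 2, and 3. *Amer1*, a membrane adaptor for APC, was at 3.01, 5.37, and 5.17 FPKM. For *Tnks* and *Amer1*, as for *Apc*, replicate 1 was well below replicates 2 and 3, which lay close together. The list's median of 8.82 FPKM was near the levels of *Apc* and *Gsk3b*.

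Of the TCF/LEF factors, *Tcf7l1* (ENSMUSG00000055799; chromosome 6, 72626378 to 72789254, minus strand) was the most abundant, at 24.6, 32.2, and 28.5 FPKM. *Tcf7* (ENSMUSG00000000782; chromosome 11, 52252371 to 52283331, minus strand) followed at 18.8, 23.1, and 21.4 FPKM. The ranges of *Tcf7l1* and *Tcf7* did not overlap, and *Tcf7l1* was 1.35 ± 0.0454 times as high (SD, n = 3). *Lef1* (ENSMUSG00000027985; chromosome 3, 131110471 to 131224356, plus strand) was at 1.26, 1.34, and 1.23 FPKM. *Tcf7l2* (ENSMUSG00000024985; chromosome 19, 55741820 to 55933654, plus strand) was at 0.674, 0.749, and 0.682 FPKM, from 107, 123, and 108 counts. *Lef1* and *Tcf7l2* thus lay far under the other factors in each library, and *Tcf7* was between 14.8 and 17.4 times as high as *Lef1*. For *Lef1*, 66.2% of the 50-base stretches were unique, and the rest were shared with *Gm43352*, so its level is uncertain where reads could be split.

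As shares of the summed FPKM of the 4 factors, *Tcf7l1* took 54.3%, 56.2%, and 55.0% in replicates 1, 2, and 3, and *Tcf7* took 41.4%, 40.2%, and 41.3%. *Lef1* made up 2.50% ± 0.254 and *Tcf7l2* 1.37% ± 0.102 (SD, n = 3). The sum itself was lower in replicate 1, at 45.3 FPKM against 57.3 and 51.8 FPKM, while the shares hardly moved. The length used mattered most for the rare members, since the table gives *Lef1* 8788 bases and *Tcf7l2* 8775 bases, against 3482 and 3715 bases for the longest coding transcript. On the shorter lengths, the shares were 4.82% for *Lef1* and 2.47% for *Tcf7l2*, and *Tcf7l1* kept 54.4%. The activator *Tcf7* exceeded *Lef1* by 16.5 times on the length in the table and by 7.99 times on that of the coding transcript. *Tcf7* and *Lef1* are also known to give short proteins that lack the β-catenin binding region, and counts per gene do not tell these from the full-length forms.

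**Figure D2:**
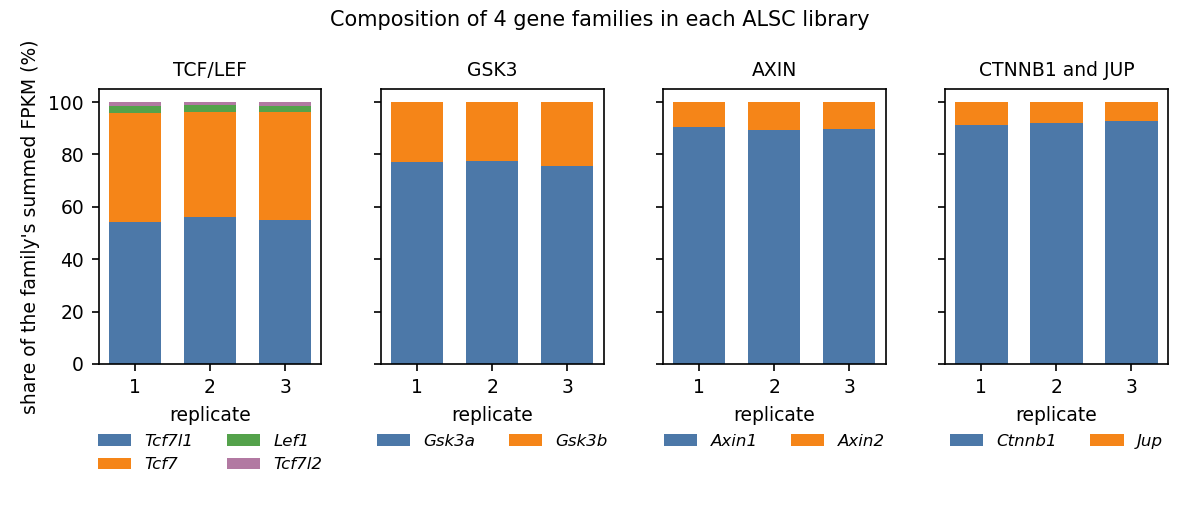
Share of each gene in the summed FPKM of its family (percent, bars from 0 to 100) in replicates 1, 2, and 3 for the TCF/LEF factors, GSK3 kinases, AXIN scaffolds, and β-catenin with plakoglobin. The composition was alike in the 3 libraries, with *Tcf7l1* at 54.3% to 56.2%, *Gsk3a* at 75.7% to 77.4%, *Axin1* at 89.3% to 90.3%, and *Ctnnb1* at 91.3% to 92.6%.

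The name Tcf3 has been used for *Tcf7l1*, and in current nomenclature it denotes another gene, the E protein E2A. The study lists RT-qPCR primers under *Tcf7l1*, and they are shown here because they tell which gene they amplify. Each primer occurred in the transcripts of 1 annotated gene only, *Tcf7l1*. Together they frame 83 bases of coding sequence that join exons 7 and 8 of transcript Tcf7l1-201 (GRCm38, chr6:72632065-72632977, minus strand, with the intron between). In the cDNA below, read from the GENCODE M21 transcript, the capitals mark the forward primer and the site of the reverse primer.
Tcf7l1 amplicon: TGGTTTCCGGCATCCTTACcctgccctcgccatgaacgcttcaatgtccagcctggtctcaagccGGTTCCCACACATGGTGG

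In the table, the row named *Tcf3* was at 62.8, 70.4, and 71.6 FPKM, which was 2.42 ± 0.201 times the level of *Tcf7l1* (SD, n = 3). *Tcf4*, whose symbol is an older name of *Tcf7l2*, encodes another E protein and was at 1.32, 1.64, and 1.61 FPKM. *Tcf12*, the remaining E protein, was at 3.61, 5.46, and 4.78 FPKM. Reading *Tcf3* for *Tcf7l1* would have raised the level in every library.

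In the order of their means, the genes ran *Ctnnb1*, *Gsk3a*, *Tcf7l1*, *Axin1*, *Tcf7*, *Gsk3b*, *Apc*, *Axin2*, *Lef1*, and *Tcf7l2*. The ranges of neighbors overlapped in 3 of the 9 steps. *Gsk3a* and *Tcf7l1* differed by 0.04 ± 0.08 on the log2 scale of FPKM, and *Axin1* and *Tcf7* by 0.04 ± 0.04 (mean ± SD of 3 libraries). In both pairs, the order held in 2 of 3 libraries, so these levels were not told apart. *Gsk3b* was above *Apc* within each library, by 0.41 ± 0.30 on the log2 scale, although their ranges overlapped. With coding transcript lengths, 2 steps turned, as *Tcf7* came to lie 0.23 above *Axin1*, and *Axin2* and *Lef1* were at 3.21 and 3.22 FPKM. A sign test over 3 libraries cannot give a two-sided p below 0.25, and no p is given for the order.

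Whether counts differed between the libraries beyond counting error was asked of each gene by a chi-square test of homogeneity against TMM-scaled library sizes, with Benjamini-Hochberg adjustment over 16944 genes. The counts of 7 of the 10 genes varied, and the background was high, with 47.2% of all tested genes and 64.7% of those whose mean count reached 100, to which all 10 belong. The 7 of 10 were therefore near the background. They were *Ctnnb1* (adjusted p = 6.06e-101), *Apc* (adjusted p = 1.16e-93), *Gsk3b* (adjusted p = 5.66e-18), *Gsk3a* (adjusted p = 1.11e-15), *Tcf7l1* (adjusted p = 5.49e-10), *Axin1* (adjusted p = 0.00430), and *Tcf7* (adjusted p = 0.00439). All 7 were lowest in replicate 1. Of all tested genes, 22.1% passed the test and were lowest in replicate 1, which is 46.8% of those that passed. No such share was taken over the genes whose mean count reached 100, so the 7 lack a matched background here. *Axin2* (adjusted p = 0.0705), *Lef1* (adjusted p = 0.797), and *Tcf7l2* (adjusted p = 0.877) did not pass, and these have the fewest counts of the 10. Since the test covers counting error only, small differences suffice where counts are high, as for *Ctnnb1*.

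The libraries disagreed most on *Apc*. On the TMM scale, replicate 1 held 52.0% of the mean of the other libraries for *Apc*, 74.0% for *Gsk3b*, 76.9% for *Gsk3a*, and 81.2% for *Ctnnb1*. The corresponding value was 85.1% for *Tcf7l1* and between 88.6% and 88.9% for *Tcf7* and *Axin1*. Of the genes that did not pass, *Axin2* was at 81.2%, *Tcf7l2* at 98.9%, and *Lef1* at 103%. The median log2 ratio of replicate 1 to the others was -0.27 over the 10 genes and 0.00 over the genes whose mean count reached 100. The coefficient of variation was 33.2% for *Apc* and 3.88% for *Lef1*, against a median of 10.8% over the latter genes. Without replicate 1, 3 of the 10 genes varied between replicates 2 and 3, against 8.11% of all tested genes and 10.6% of those whose mean count reached 100. These were *Ctnnb1* (adjusted p = 8.73e-07), *Tcf7l1* (adjusted p = 0.00932), and *Gsk3a* (adjusted p = 0.0377). *Ctnnb1* was higher in replicate 3 and the others in replicate 2. The calls of *Apc* (adjusted p = 0.179), *Gsk3b* (adjusted p = 0.949), *Axin1* (adjusted p = 0.999), and *Tcf7* (adjusted p = 0.438) were lost, and that of *Tcf7* also without replicate 2 (adjusted p = 0.0690).

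Gene length moved with these differences. *Apc* and *Gsk3b*, which had the largest shortfall in replicate 1, are among the longest of the 10 genes, and yet *Lef1* and *Tcf7l2*, of nearly the length of *Gsk3b*, had log2 ratios of 0.05 and -0.02. *Gsk3a* is short and had a ratio of -0.38. After removal of the trends with length and GC content, the ratio went from -0.94 to -0.48 for *Apc*, from -0.44 to -0.16 for *Gsk3b*, from -0.38 to -0.46 for *Gsk3a*, and from 0.05 to 0.35 for *Lef1*. Then 8 of the 10 genes varied, the former 7 and *Lef1* (adjusted p = 0.0466), against 38.0% of all tested genes and 51.7% of those whose mean count reached 100. The median ratio of the 10 was then -0.19, against -0.00 over the genes whose mean count reached 100 and -0.03 over all tested genes. What set replicate 1 apart was not tested.

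**Figure D3:**
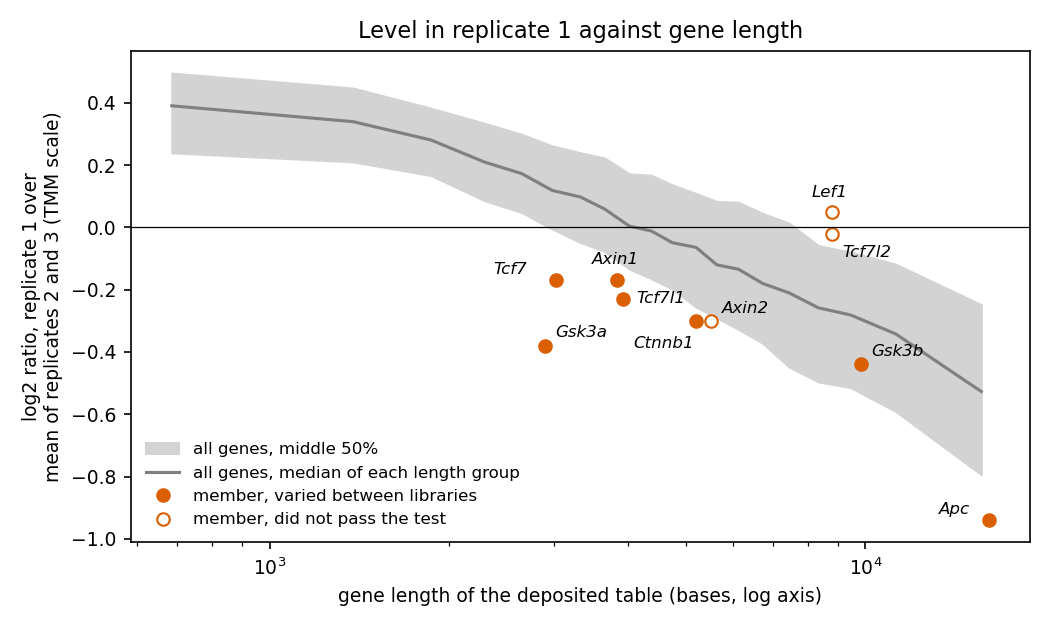
Log2 ratio of replicate 1 to the mean of replicates 2 and 3 (TMM scale) against the gene length in the deposited table (bases, log axis), for the 10 genes (points; filled where counts varied between libraries) and for the 10577 genes whose mean count reached 100 (line, median of 20 length groups; band, middle 50%). Ratios fell with length among all genes, *Apc* lay at -0.94, and *Lef1* and *Tcf7l2* lay near 0, above the band.

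Nuclear partners of β-catenin and of the TCF/LEF factors were looked at in a list of 18 genes, of which 16 reached 1 FPKM in all libraries. The highest were the histone deacetylase *Hdac1* at 51.6 ± 0.611 FPKM, *Cby1*, a binding partner that holds β-catenin in check, at 36.2 ± 2.27 FPKM, and the corepressor *Ctbp1* at 33.7 ± 0.378 FPKM (SD, n = 3 for each). Counts of 13 of the 18 varied between libraries, against 47.2% of all tested genes and 64.7% of those whose mean count reached 100. Without replicate 1, *Tle2* had too few counts to be tested, and 1 of the others varied. The background was then 8.11% of all tested genes and 10.6% of those whose mean count reached 100. The lowest adjusted p belonged to the histone acetyltransferase *Ep300*, at 4.22, 9.62, and 9.59 FPKM in replicates 1, 2, and 3 (adjusted p = 3.42e-121). *Chd8*, a remodeler that binds β-catenin, was at 4.04, 7.52, and 7.29 FPKM (adjusted p = 2.52e-65). *Bcl9*, the adaptor between β-catenin and Pygopus, was at 4.84, 9.21, and 7.43 FPKM (adjusted p = 5.24e-37). In each of these, replicate 1 was the low library, as for *Apc*. Without replicate 1, *Bcl9* still varied (adjusted p = 3.04e-05), and *Ep300* (adjusted p = 0.862) and *Chd8* (adjusted p = 0.828) did not. Among destruction complex partners and junction genes, 12 of 14 and 5 of the 7 tested genes varied, against the same 47.2% and 64.7%. Without replicate 1 these numbers were 2 and 1, against 8.11% and 10.6%. The genes were *Csnk1a1* (adjusted p = 0.0233), *Tnks2* (adjusted p = 0.0394), and *Cdh2* (adjusted p = 0.00931). The median log2 ratio of replicate 1 to the others was -0.24 for the destruction complex partners, -0.15 for the nuclear partners, and -0.10 for the junction genes.

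Known target genes of β-catenin and TCF were mostly low. In a list of 20 that contains *Axin2*, *Lef1*, and *Tcf7*, 9 genes reached 1 FPKM in all libraries, and the median was 1.03 FPKM. The cell cycle gene *Ccnd1* led with 19.3, 23.9, and 25.3 FPKM, followed by *Tcf7* and by the receptor gene *Tnfrsf19* at 8.43 ± 0.748 FPKM (SD, n = 3). At 3 counts or fewer in every library were *Cdx1*, *Cdx2*, and *Cdx4*, homeobox genes of the posterior embryo. *Cdx1* had no count, which allows up to 0.0950 FPKM. Of the 17 target genes with enough counts to be tested, 3 varied between the libraries, *Ccnd1* (adjusted p = 5.25e-11), *Tcf7*, and *Notum* (adjusted p = 0.00268). The background was 47.2% of all tested genes and 64.7% of those whose mean count reached 100. Several of the 17, *Notum* among them, had mean counts below 100, where the test shows less, so a low number does not mean stable levels. Without replicate 1, *Notum* still passed (adjusted p = 0.0202), and *Ccnd1* (adjusted p = 0.108) and *Tcf7* did not. *Notum*, which encodes a secreted enzyme that inactivates WNT proteins, had only 6, 4, and 19 counts. Most of these genes have other inputs too, so that their levels alone do not measure β-catenin activity.

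**Figure D4:**
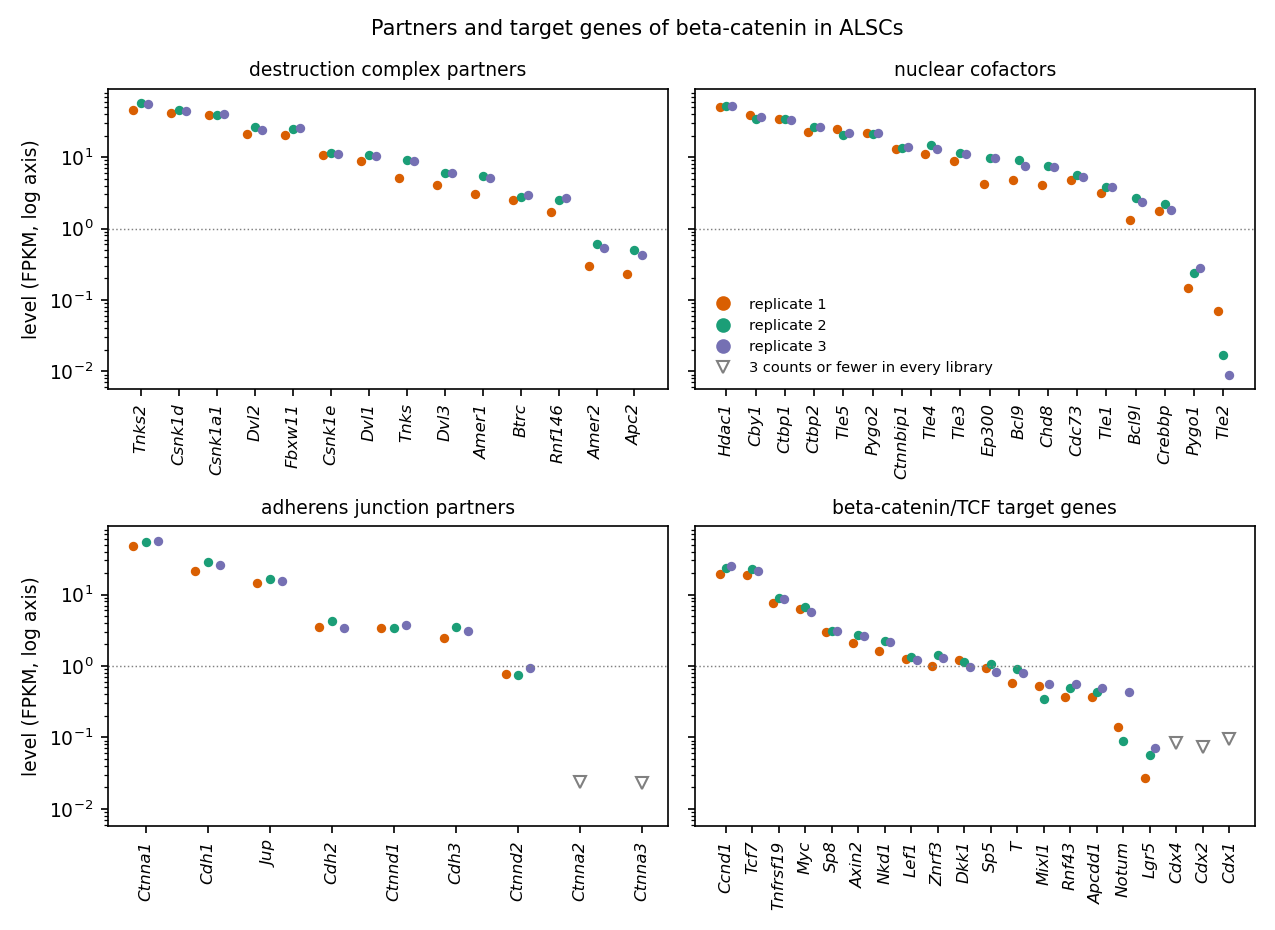
Level in FPKM (log axis) of the genes in 4 lists, destruction complex partners, nuclear cofactors, adherens junction partners, and target genes, in replicates 1, 2, and 3 (colored points); open triangles stand at the highest FPKM that 3 counts would give in any library, for genes with 3 counts or fewer in every library, and the dotted line marks 1 FPKM. Partners and cofactors were mostly above 1 FPKM (12 of 14 and 16 of 18 genes), and 9 of 20 target genes were.

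Naive genes known to be repressed by TCF7L1 in ESCs were at very different levels beside its 28.4 ± 3.80 FPKM (SD, n = 3). *Nanog* was at 191, 157, and 165 FPKM, and *Klf2* at 3.38, 3.47, and 3.03 FPKM. *Esrrb* stayed under 1 FPKM in each library, at 0.576, 0.945, and 0.843 FPKM, as did *Tfcp2l1* at 0.533, 0.866, and 0.752 FPKM and *Nr5a2* at 0.703, 0.878, and 0.695 FPKM. *Tbx3* had at most 1 count. Of the 5 genes with enough counts to be tested, *Nanog* (adjusted p = 2.82e-54), *Tfcp2l1* (adjusted p = 0.0119), and *Esrrb* (adjusted p = 0.0399) varied between libraries. The background was 47.2% of all tested genes and 64.7% of those whose mean count reached 100. Without replicate 1, *Nanog* still passed (adjusted p = 0.00283), and *Tfcp2l1* (adjusted p = 0.600) and *Esrrb* (adjusted p = 0.762) did not.

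Promoter windows from RefSeq (GRCm38.p6, 250 bases before to 50 after a start site) were searched for the core CTTTGA of TCF/LEF sites and its reverse complement TCAAAG. Windows of 8 of the 10 genes were searched, 14 in all, and 3 of these (21.4%) held the core. The remaining genes were left out of the search, so nothing is said about their promoters. Of all 32851 windows, 16.0% held the core. Member windows and all windows were not selected alike, and the members' share rests on 3 windows, so the shares are not compared. No result about the members is drawn from them, and binding was not tested. The matches, at a kinase gene pair of the destruction complex and at a start within *Lef1*, are shown with their surroundings. For *Lef1*, both lay in the window of an internal start, 180 and 120 bases before it, and none in the windows of its upstream starts. The core was also found 157 bases before the start of *Gsk3a* and 77 bases before that of *Gsk3b*. The windows of *Axin2* and *Tcf7*, known targets, did not contain these letters. Each sequence is written along the gene's own strand, and capitals mark the core.
Lef1, chr3:131156102-131156131, plus strand: taaaatacatggTCAAAGgaaaataggtat
Lef1, chr3:131156162-131156191, plus strand: cattgtctgttcTCAAAGtcaggtcttgca
Gsk3a, chr7:25237991-25238020, minus strand: tgactgtgttttTCAAAGtgcttccaagtt
Gsk3b, chr16:38088912-38088941, plus strand: cttctccccgccTCAAAGagggaggggagg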

How the data were processed

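Poly(A) RNA of 3 ALSC libraries was sequenced as paired-end reads that the authors mapped to GRCm38, and the submitters' processing notes name HISAT2 2.0.5. The counting program, its strand setting, and its treatment of reads with several matches are not given in the sources used here. The authors deposited raw counts per gene, not normalized, with another column of gene lengths. The columns named EPI_AL, numbered 1 to 3, were taken as the ALSC libraries of the same numbers. This match was inferred from the epiblast origin, the AL medium (Activin A and LIF), and the number, and the study also describes epiALSCs, which are EpiSCs moved to AL medium. The 3 count columns of this table that match no sample of the series were not used in any step. The 317 rows without a gene name (0.165% to 0.182% of counts) were left out.

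FPKM was computed with the total on named genes. Genes were tested for variation with the chi-square test at 10 or more counts in total and a threshold of 0.05 on the adjusted p, and a level at or under 3 counts was taken as not detected. Counts, limits, and p-values cover counting error only. Library sizes carried edgeR 4.0.16 TMM factors, with DESeq2 1.42.0 size factors as an alternative (R 4.3.3, Python 3.11.15, SciPy 1.17.1). Trends were taken with gene length and then with GC content, from medians of 20 groups of genes whose mean count reached 100, and 99.96% of these had a GC content in GENCODE M21. The test and the trend fit were tried on simulated counts with set changes and counting error only. Those counts held no further spread between libraries, unlike the data, so they do not bear on calls made under such spread. Aes of the cofactor list is *Tle5* in the table.

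The members and lists were chosen with earlier results of these data known. Named were all members and, per list, the 3 highest genes, up to 5 at 3 counts or fewer, up to 3 varying genes with the lowest adjusted p, and the whole of the naive list and of that with confusable symbols, of which 1 gene is not reported here. Cell type markers had lists of their own.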

Additional observations from a re-analysis of the deposited data

How the results depend on the processing

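No paired analysis was possible because ALSCs are the sole condition with samples here. TMM sizes, DESeq2 size factors, and a total without mitochondrial genes moved no mean FPKM of the 10 genes by 1 SD. Gene length moved most. With the longest coding transcript, *Ctnnb1* was at 255, *Gsk3a* at 37.7, *Tcf7l1* at 36.7, *Tcf7* at 25.8, *Axin2* at 3.21, *Lef1* at 3.22, and *Tcf7l2* at 1.66 FPKM, while *Axin1*, *Gsk3b*, and *Apc* moved by less than 1 SD. The share of *Gsk3b* in GSK3 was then 21.8%, that of *Axin1* in AXIN 87.3%, and that of *Ctnnb1* beside *Jup* 89.1%. As shares of raw counts, *Tcf7l1* took 57.8%, *Gsk3b* 50.6%, *Axin1* 85.9%, and *Ctnnb1* 90.2%. Without replicates 1, 2, and 3 in turn, 3, 6, and 8 of the 10 genes varied between the libraries. Of all tested genes, 1302 of 16062, 6830 of 15923, and 7490 of 16026 did so. Under the other scalings and filters, 7 or 8 of the 10 genes varied. Of all tested genes, between 6432 and 8045 of 16944 did, and 7775 of 23907 without the filter on low counts. *Axin2* passed the test on total counts (adjusted p = 0.0149) and without replicate 3 (adjusted p = 0.0339), and *Lef1* with the trends removed (adjusted p = 0.0466). At most 283 counts lay behind each library's value of *Axin2*, *Lef1*, and *Tcf7l2*, which limits what the test could show for them.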
